A study of Canis lupus familiaris with 55 samples.

Results

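The respiratory chain and ATP synthase subunits encoded in the nucleus were represented by 61 of the 58781 loci in the table of assembled and annotated dog genes. They were taken by gene symbol alone: NDUF with A, B, C, S or V and a number for complex I, SDH for complex II, UQCR for complex III, COX4 to COX8 for complex IV and ATP5 for complex V. These 61 loci carried 56 different symbols, with 30 loci in complex I, 3 in complex II, 9 in complex III, 11 in complex IV and 8 in complex V. A locus is one gene of the assembly and bears an XLOC number where its symbol occurs more than once. Of the 61, 47 were multi-exon loci of a member alone and 5 shared their locus with another gene. A further 4 lay only opposite the strand of the annotated gene and 5 had a single exon.

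The series measured polyadenylated RNA in the gonads of dog embryos, one gonad pair per library, in a pedigree that transmits XX disorder of sex development (DSD), in which dogs without SRY form testes or ovotestes. XX DSD embryos were at risk of the disorder, of mixed American cocker spaniel and beagle descent, and either homozygous or heterozygous for a guanine insertion linked to it in that pedigree. Whether a given embryo would have been affected was not known. XY littermates came from the same pedigree, and age-matched XX and XY controls came from beagle parents sharing the background of the beagles crossed into it.

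At d35, counted from the luteinizing hormone surge of the dam, there were 9 XX DSD libraries (4 homozygous and 5 heterozygous) and 4 XY littermate libraries (3 and 1). At d37-39 there were 8 XX DSD (6 and 2), 5 XY littermate (all homozygous), 6 XX control and 6 XY control libraries. At d42-44 there were 6 XX DSD (all homozygous, d41 to d44), 3 XY littermate (1 homozygous and 2 heterozygous, d41 and d42), 3 XX control and 3 XY control libraries, with all 6 controls at d44. At d34 there was 1 control pool of 6 XX embryos and 1 of 7 XY embryos, of mixed beagle and Labrador descent. The controls of d37, d39 and d44 came from 1 litter each. Pedigree and breed cannot be told apart at d37-39 or d42-44, and at d42-44 neither can be told apart from litter. Nor can gestational day be told apart from them in XY gonads at d42-44, where littermates and controls share no day. Of the XX DSD embryos of that age group only C3659 was of d44, the day of the controls. Per the study's methods, libraries were pooled for sequencing by group, at risk or control. Sequencing pool therefore cannot be told apart from the difference between XX DSD and XX controls. The 2 XX DSD libraries and the XY littermate library labelled d41 are listed at d38 in a table of the study and stayed with d42-44, as in its methods.

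Oxidative phosphorylation passes electrons from NADH through complex I, or from succinate through complex II, to complex III, cytochrome c and complex IV, and complex V makes ATP from the resulting proton gradient. Most subunits are encoded in the nucleus, a few in the mitochondrial genome, and some nuclear subunits of complex IV have tissue or oxygen-dependent isoforms. Steroid-making cells such as Leydig cells start steroid synthesis at the inner mitochondrial membrane. In bulk RNA from a whole gonad, fewer cells of a type and less RNA per cell cannot be told apart.

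Read counts were not used here, and depth was estimated from the smallest steps of low values. Relative to the deepest library it ranged from 0.257 to 0.321 in XX DSD and from 0.268 to 0.299 in XY littermates at d42-44, against 0.599 to 0.824 in XX controls and 0.401 to 0.599 in XY controls of that age. These ranges did not overlap between pedigree and control groups of the same sex, and the part of depth in the d42-44 results was not tested. Gonad markers differed with the sex labels at d37-39, where 6 of 6 tested Sertoli cell loci and 7 of 7 Leydig and steroidogenic loci were lower and 9 of 10 pre-granulosa loci higher in XX than in XY controls. The 4 libraries C3627, C3637 and C3638 (XY littermates) and A1099 (an XY control), all d37-39, held 6839 to 8691 unannotated loci at 1 FPKM or more, against 2417 to 4962 in the other 51, and results that rest on them are given with and without them.

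Levels are in FPKM, read fragments normalized to transcript length and to the mapped reads of the library, so that genes can be set side by side. Over all 55 libraries the most abundant members were UQCRH, a hinge subunit of complex III, with a mean of 720 FPKM, COX5B of complex IV with 689 FPKM and ATP5B, the catalytic beta subunit of ATP synthase, with 623 FPKM. In complex II, SDHA averaged 217 FPKM (in a locus shared with PDCD6), SDHC 119 FPKM and SDHB 70.3 FPKM. The locus named ATP5A1, after the alpha subunit, averaged 0.181 FPKM. It holds 1 transcript of 2 exons, and whether it is the gene that supplies this subunit was not tested. COX6A2, the muscle isoform, averaged 0.492 FPKM and stood at 0 in 26 libraries. The 4 lowest of the 61 also included UQCRFS1 XLOC_001634, opposite the strand of its gene, at 0.00304 FPKM, and the single-exon NDUFC1 XLOC_017605, at 0 in 36 libraries.

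The first comparison asked how gonads at risk differed from those of age-matched XX controls. At d42-44, 42 of 57 tested members differed between XX DSD and XX control gonads, 27 lower and 15 higher, in limma on log2(FPKM + 1) with Benjamini-Hochberg adjusted p below 0.05 over all loci tested. All loci were called in 48.5% of cases, 29.2% lower and 19.3% higher. Of the 12907 annotated loci among the 19420 tested in that fit, 64.4% were called, 39.2% lower and 25.2% higher. The median change of members was -0.24 log2 against -0.09 over all loci and -0.12 over annotated loci. No member reached a fold of 2 with a mean of 4 FPKM, which 6.15% of all loci did. With the trend of change on transcript length removed, which moved the median of all loci from -0.09 to 0.02, the split was 18 lower and 19 higher of 37 called and the members' median -0.08.

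In complex I, 14 of 29 tested members were lower and 8 higher at d42-44. NDUFS7, a core subunit with an iron-sulfur cluster on the electron path to ubiquinone, measured 75.3, 72.2 and 68.6 FPKM in the 3 XX controls and 43.9, 42.9, 32.0, 41, 35.8 and 38.3 FPKM in the 6 XX DSD libraries. Every XX DSD value lay below every control value. C3659, the d44 embryo of the age of the controls, had 38.3 FPKM, within the range of its group. The mean was 39 ± 4.52 FPKM (SD, n = 6) against 72.0 ± 3.35 (SD, n = 3), a change of -0.88 ± 0.10 log2 (SE, adjusted p = 7.3e-05). NDUFB7, an accessory subunit facing the intermembrane space, measured 167, 177 and 162 FPKM in controls and 86.1 to 99.7 FPKM in XX DSD. It changed by -0.86 ± 0.06 log2 (adjusted p = 8e-06). NDUFA3, another accessory subunit, fell from 371 ± 13.8 to 203 ± 17.6 FPKM, by 0.87 log2 (adjusted p = 1.9e-05). The flavin-binding core subunit NDUFV1 (-0.65 log2) and NDUFV3 (-0.62 log2), which sits beside it, were also lower.

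NDUFV2, which forms the flavoprotein part of complex I with those subunits, was higher. It measured 16.5, 15.3 and 16.4 FPKM in XX controls and 20 to 23.1 FPKM in XX DSD, a change of 0.40 ± 0.05 log2 (adjusted p = 0.00016). NDUFB4, an accessory membrane subunit, measured 75.7, 48.3 and 57.9 FPKM in controls and 86.0 to 114 FPKM in XX DSD (0.74 ± 0.14 log2, adjusted p = 0.0015). NDUFB3 (0.34 log2), NDUFB5 (0.40 log2) and the largest core subunit NDUFS1 (0.24 log2) were higher too. So were the single-exon loci NDUFB6 XLOC_024079 (0.27 log2) and NDUFS4 (0.29 log2), and NDUFC1 XLOC_017785 (0.37 log2), which lies only opposite the gene's strand. The locus XLOC_017785 also holds ARP3, and only 3 of its 15 transcripts bear the NDUFC1 name, so its level may not be that of NDUFC1. These libraries are not stranded, so reads of a gene and of a transcript opposite to it cannot be told apart.

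In complex II, 1 of 3 members was called. SDHC, a membrane anchor, measured 119, 111 and 116 FPKM in XX controls and 80.5 to 101 FPKM in XX DSD, a change of -0.33 ± 0.07 log2 (adjusted p = 0.0047). SDHB, the iron-sulfur subunit, changed by -0.24 log2 (adjusted p = 0.051) and SDHA, the flavoprotein, by -0.08 log2 (adjusted p = 0.16), so neither passed the test.

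In complex III, 6 of 8 tested members were lower and none higher at d42-44. UQCR11, a small subunit whose locus also holds MBD3 and MEX3D, measured 493, 526 and 455 FPKM in controls and 214 to 334 FPKM in XX DSD, a change of -1.0 ± 0.13 log2 (adjusted p = 0.00021). The highest XX DSD value, 334 FPKM, came from C3659, the only d44 embryo of that group. UQCRC1, a core subunit, measured 77.8, 82.4 and 83.1 FPKM in controls and 51.9 to 63.1 FPKM in XX DSD (-0.50 ± 0.06 log2, adjusted p = 0.00012). UQCRQ (-0.46 log2), UQCR10 (-0.42 log2), the Rieske iron-sulfur protein UQCRFS1 XLOC_000813 (-0.36 log2) and UQCRH (-0.33 log2) were also lower.

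Complex IV was split, with 3 of 10 tested members lower and 4 higher. COX7C, a small subunit found in all tissues, measured 96.4, 84.1 and 95.4 FPKM in XX controls and 152 to 172 FPKM in XX DSD. Its change of 0.78 ± 0.06 log2 (adjusted p = 1.1e-05) was the largest increase among called members. COX7A2L, which helps complexes III and IV form supercomplexes, was higher by 0.39 log2 and the widely expressed isoform COX7A2 XLOC_007946 by 0.39 log2. COX7A2 XLOC_007549, opposite the gene's strand, was higher by 0.56 log2, from 1.01 ± 0.0519 to 1.99 ± 0.424 FPKM. Lower were COX8A (-0.65 ± 0.04 log2, adjusted p = 7e-06), in a locus that also holds OTUB1 and NAA40, COX5B (-0.50 log2) and COX4I2 (-0.58 log2).

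In complex V, 3 of 7 tested members were lower and 3 higher. ATP5D, the delta subunit of the rotating stalk, measured 221, 248 and 229 FPKM in controls and 114 to 140 FPKM in XX DSD, a change of -0.86 ± 0.07 log2 (adjusted p = 1.9e-05). ATP5G1, one of the genes for the proton-carrying ring (-0.49 log2), was lower. ATP5SL, which has the family name but is not a structural subunit of ATP synthase, was lower by 0.53 log2 (adjusted p = 0.01). ATP5S, named as a coupling factor and likewise not a structural subunit, was higher by 0.53 ± 0.07 log2 (adjusted p = 0.00024), from 8.57 ± 0.108 to 12.8 ± 1.14 FPKM. The stalk subunits ATP5J (0.27 log2) and ATP5F1 (0.13 log2) were higher by less.

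**Figure D1:**
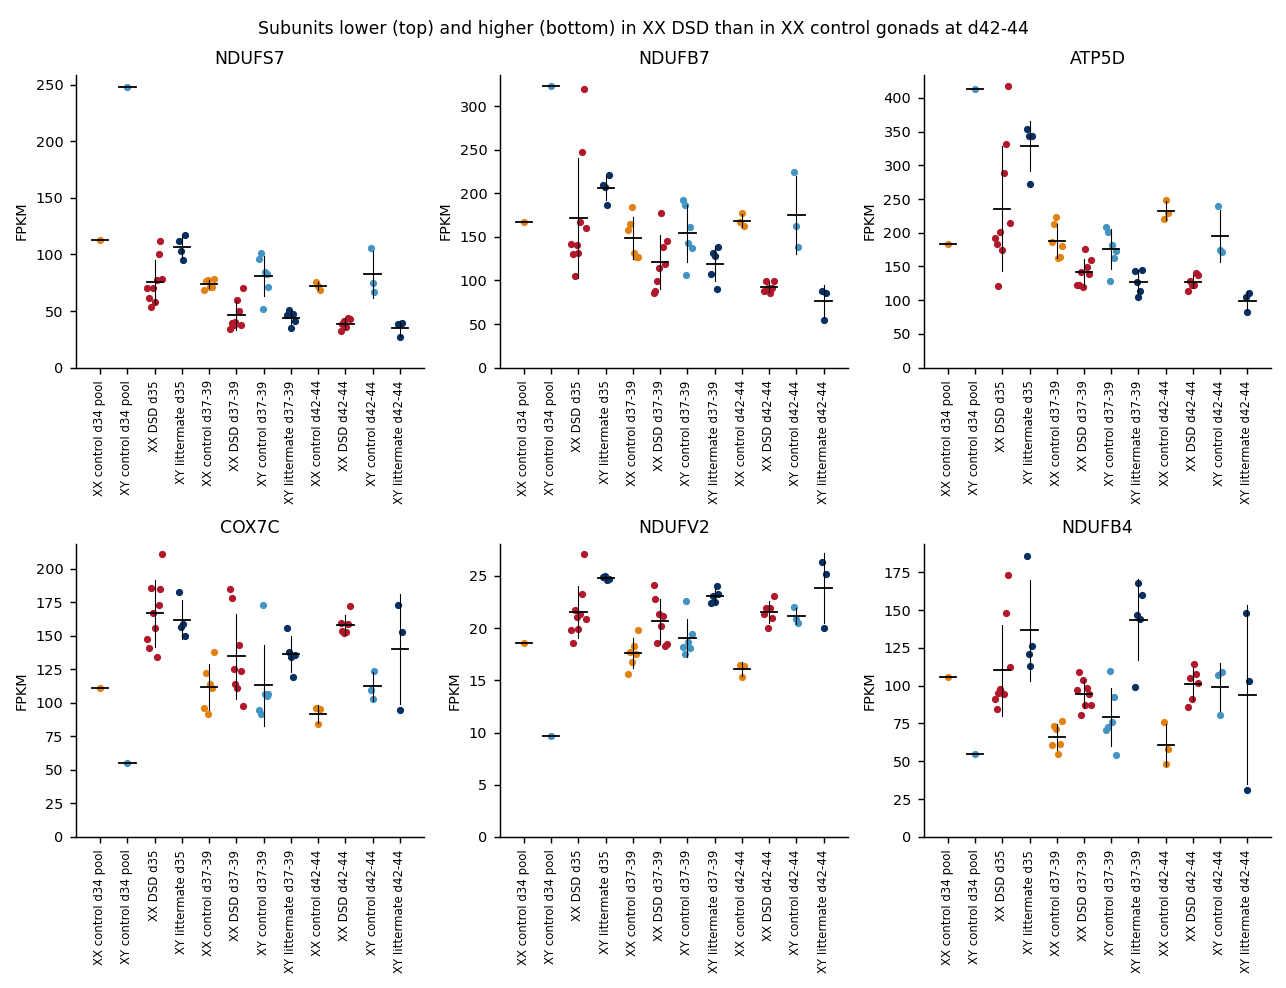
FPKM of NDUFS7, NDUFB7 and ATP5D (top) and of COX7C, NDUFV2 and NDUFB4 (bottom), with each group on the x axis, 1 point per library, bars at the group mean and lines of 1 SD. At d42-44 the top row is lower in XX DSD (NDUFS7 32.0 to 43.9 FPKM) than in XX controls (68.6 to 75.3 FPKM) and the bottom row is higher (COX7C 152 to 172 against 84.1 to 96.4 FPKM).

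At d37-39, 16 of 57 tested members differed between XX DSD and XX controls, 12 lower and 4 higher, where 13.8% of all loci were called, 8.11% lower and 5.65% higher, and 22.1% of annotated loci. The median change was -0.10 log2 for members, 0.09 for all loci and -0.02 for annotated loci. NDUFS7 ranged from 34.3 to 70.3 FPKM in XX DSD with a median of 40.2 FPKM, and from 68.8 to 77.9 FPKM in XX controls with a median of 74.1 FPKM, so the groups overlapped by 1 library. It changed by -0.70 ± 0.14 log2 (adjusted p = 0.0047). UQCR11 (-0.78 log2), UQCRQ (-0.66 log2), UQCR10 (-0.61 log2), COX4I2 (-0.57 log2), COX5B (-0.56 log2), ATP5D (-0.42 log2) and COX4I1 (-0.29 log2) were lower. COX5B ranged from 382 to 534 FPKM in XX DSD and from 626 to 773 FPKM in XX controls, without overlap.

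NDUFB4 was the clearest increase at d37-39, with 80.8 to 109 FPKM in XX DSD and 54.5 to 76.3 FPKM in XX controls (0.51 ± 0.09 log2, adjusted p = 0.0016). NDUFS1 (0.25 log2), NDUFC1 XLOC_017785 (0.24 log2, in the locus with ARP3) and COX7A2L (0.32 log2, adjusted p = 0.045) were the others. The opposite-strand locus COX7A2 XLOC_007549 was lower by 0.51 log2 at this age (adjusted p = 0.041). The count at d37-39 depended on single control libraries, with 9 calls without A1086, 9 without A1088 and 8 without A1089. It fell to 3 with litter as a random block and to 10 at d39 alone, and with the length trend removed it was 5 lower and 7 higher.

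The 2 XX DSD embryos of d37, C3512 and C3515, resembled the older XX DSD gonads at several members. They had 185 and 178 FPKM of COX7C, where the 6 XX DSD libraries of d39 had 98.0 to 143 FPKM, and 206 and 208 FPKM of NDUFA3 against 275 to 428 FPKM. Their relative depths were 0.268 and 0.291, close to those of the d42-44 XX DSD libraries, while the d39 libraries had 0.406 to 0.920. Depth moves with these values, as do day and litter, since both d37 embryos came from the same litter. The part of each in the result was not tested.

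**Figure D2:**
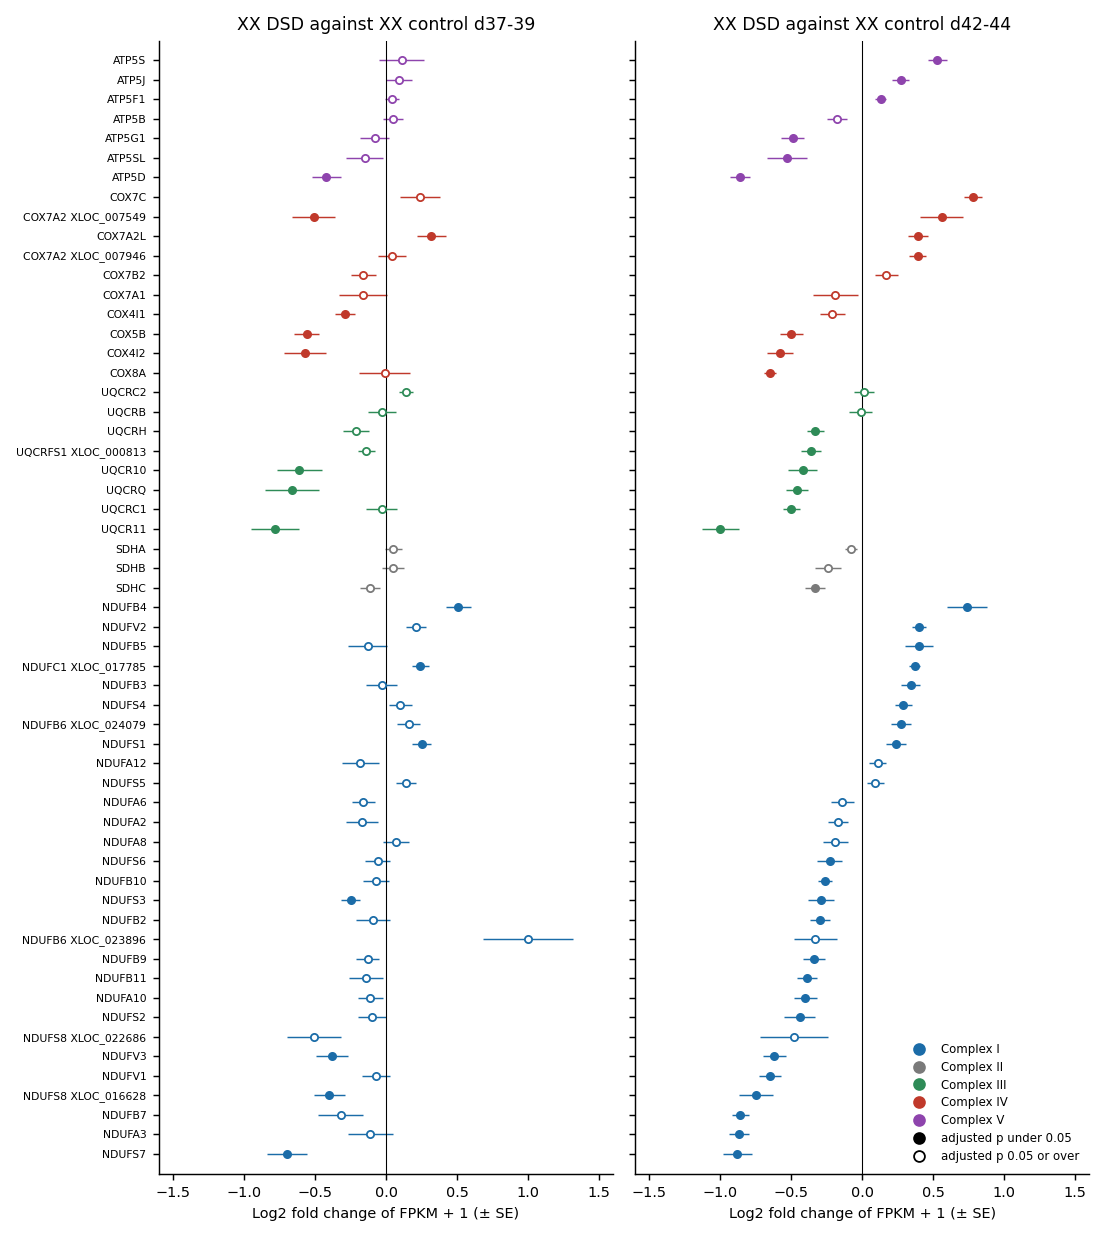
Log2 fold change of FPKM + 1 (x axis, ± SE) of each member tested in XX DSD against XX controls at d42-44 (y axis), coloured by complex, with filled points for an adjusted p under 0.05. NDUFS7, NDUFB7, NDUFA3 and ATP5D lie near -0.87 in XX DSD against XX controls at d42-44 and COX7C lies at 0.78.

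XY littermates were compared with XY controls to describe the same contrast in males. At d42-44 the littermates were d41 and d42 and the controls d44, so day cannot be told apart from pedigree. At d42-44, 7 of 58 tested members differed, 6 lower and 1 higher, where 11.2% of all loci were called, 8.58% lower and 2.63% higher, and 15.2% of annotated loci. The median change of members was -0.46 log2 against -0.03 over all loci. NDUFS7 measured 39.1, 38.3 and 27.1 FPKM in littermates and 106, 74.4 and 67.0 FPKM in controls, a 2.36-fold decrease of the mean and a change of -1.21 ± 0.22 log2 (adjusted p = 0.032). NDUFB7 fell from 175 ± 45.3 to 76.2 ± 18.3 FPKM (SD, n = 3 each), by 1.19 log2 (adjusted p = 0.041 by limma), and UQCR11 by 1.18 log2 (adjusted p = 0.034). Those 3 members alone passed the fold of 2 as well, where 3.37% of all loci did.

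ATP5D (-0.96 log2, adjusted p = 0.033), NDUFV1 (-0.64 log2) and NDUFS6 (-0.60 log2) were the other members lower in XY littermates, and NDUFB5 was higher (0.39 log2, adjusted p = 0.041). NDUFA3 changed by -1.40 log2 without passing (adjusted p = 0.068), with 172, 157 and 66.9 FPKM against 439, 299 and 258 FPKM. The lowest of these values, in C3522, went with the lowest NDUFB4 (30.9 FPKM), COX7C (94.4 FPKM) and COX7A1 (31.0 FPKM) of the group. This comparison was fragile. No member was called without the d41 littermate C3691, without the littermates C3518 or C3522, or without the controls A1106 or A1108, but 20 were called (18 lower and 2 higher) with the fit and adjustment over annotated loci alone, where the background was 30.4%, and the split was 4 lower and 2 higher under median ratio scaling.

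At d37-39, 4 of 57 members differed between XY littermates and XY controls, 2 lower and 2 higher, where 1.29% of all loci were called, 0.885% lower and 0.402% higher, and 2.25% of annotated loci. NDUFS7 measured 46.8, 51.1, 34.9, 47.3 and 41.1 FPKM in littermates and 52.0 to 101 FPKM in controls (-0.84 ± 0.16 log2, adjusted p = 0.043). NDUFS8 XLOC_016628, another iron-sulfur core subunit, was lower by 0.60 log2 (adjusted p = 0.048). NDUFB4 was higher by 0.86 log2 (adjusted p = 0.048) and the opposite-strand locus NDUFB6 XLOC_023896 by 1.36 log2 (adjusted p = 0.047). None of the 4 was called without the libraries that stand apart, and none without any 1 of C3626, C3627, C3637 or C3638, whereas 7 members were called without C3516.

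The 2 pedigree comparisons of one age share no library. Over 45 members that hold their own multi-exon locus and were tested in both, the changes had a Pearson correlation of 0.86 at d37-39, with 38 of the same sign, and of 0.86 at d42-44, with 41 of the same sign. These values are across genes, which are not independent replicates. The compared groups share litters (in part at d42-44) and beagle controls of 1 litter per day. At d42-44 they also share the difference in depth and, except for C3659, the difference in day from the controls. The difference of the pedigree change between the sexes was tested as an interaction in limma. No member passed at d37-39 (background 0.00514%, all lower) or at d42-44 (background 0.115%, of all loci 0.0397% higher and 0.0749% lower), where 2 and 8 members had an unadjusted p below 0.05, against 2.59% and 12.9% of all loci.

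The members lower in XX DSD at d42-44 had more annotated neighbours at the median than those that were higher, with ranges that overlapped. Within 0.5 Mb on either side there were a median of 27 other annotated loci for the 24 members called lower (range 9 to 54) of 12 for the 11 called higher (range 8 to 34) and of 20 for the 10 not called (range 4 to 41), counting members with their own multi-exon locus. On canFam3, ATP5D lies at chr20:57547260-57551705 on the minus strand, NDUFS7 at chr20:57443253-57449146 on the minus strand and UQCR11 at chr20:57288919-57323850 on the plus strand, all in a stretch with 47 to 54 such neighbours. NDUFB7 at chr20:48090825-48094828 and UQCRC1 at chr20:40505757-40515859 (both plus strand) are on the same chromosome.

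The same sign was seen over annotated loci as a whole. Spearman's correlation between the log2 change and the number of neighbours was -0.51 over 45 members and -0.47 over 12907 annotated loci in XX DSD against XX controls at d42-44, and -0.54 over 46 members and -0.46 over all annotated loci in XY littermates against XY controls. Between the sexes the signs differed. The correlation was 0.57 over members and 0.04 over all annotated loci in XX against XY controls at d37-39, and 0.48 and 0.10 at d42-44. These are descriptions across genes with no test.

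**Figure D3:**
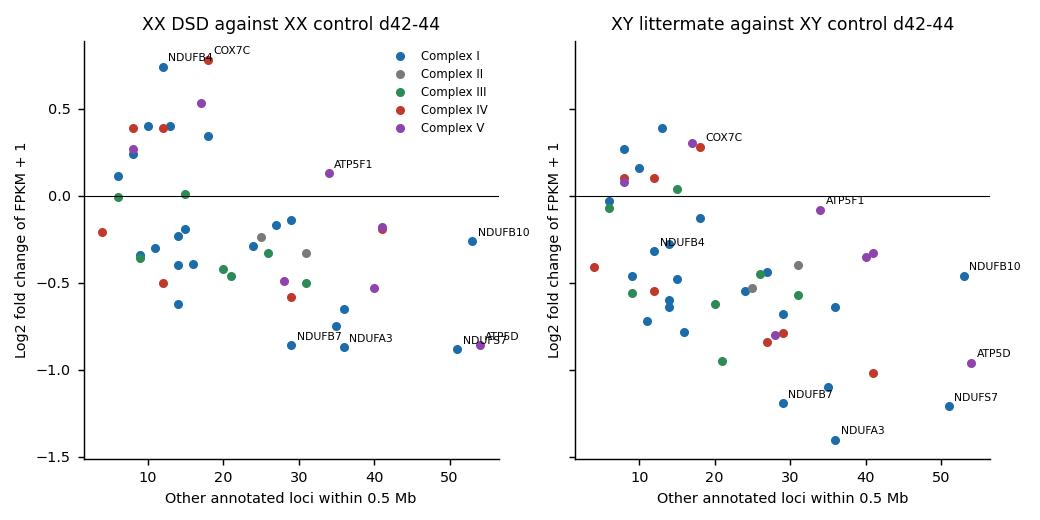
Log2 fold change of FPKM + 1 (y axis) of members with their own multi-exon locus against the number of other annotated loci within 0.5 Mb (x axis), 1 point per member, coloured by complex. Members with more neighbours lie lower in the comparisons of the DSD pedigree with controls (Spearman's correlation -0.51 and -0.54 at d42-44).

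XX and XY controls were compared to describe the sex difference. At d37-39, 18 of 57 tested members differed, 16 lower and 2 higher in XX, where 26.5% of all loci were called, 13.8% lower and 12.7% higher, and 36.7% of annotated loci (19.2% lower). At d42-44, 15 of 58 differed, 14 lower and 1 higher, where 24.8% of all loci were called, 12% lower and 12.8% higher, and 31.5% of annotated loci (15.3% lower). The median change of members was -0.15 and -0.26 log2, against -0.01 and 0.04 over all loci. The d42-44 count was 9 without A1104, 5 without A1107 and 6 without A1110, and the d37-39 count was 6 at d39 alone.

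ATP5S had the largest sex difference among called members at d42-44, with 8.65, 8.61 and 8.45 FPKM in XX controls and 19.8, 14 and 19.3 FPKM in XY controls (-0.95 ± 0.14 log2, adjusted p = 0.0046). It was the only called member that also passed a fold of 2 with a mean of 4 FPKM, where 7.85% of all loci did. COX6A2, at 0.236 ± 0.236 FPKM in XX and 1.67 ± 1.06 FPKM in XY controls (SD, n = 3 each), changed by -1.04 log2 without passing (adjusted p = 0.13 by limma). At d37-39 ATP5S ranged from 9.33 to 11.2 FPKM in XX and from 13.8 to 17.2 FPKM in XY (-0.61 ± 0.07 log2, adjusted p = 2.6e-05). COX7A2L was lower in XX by 0.77 log2 at d37-39 (adjusted p = 7.5e-05) and by 0.83 log2 at d42-44 (adjusted p = 0.0033). At d42-44 it measured 13.4, 10.7 and 11.8 FPKM in XX and 23.2, 19.8 and 22.8 FPKM in XY. NDUFB3, a small membrane subunit of complex I, was lower by 0.54 and 0.81 log2. UQCRC2, a core subunit of complex III, was lower by 0.31 and 0.40 log2, and COX4I1, the common form of the regulatory subunit COX4, by 0.42 and 0.51 log2.

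Both members higher in XX were isoforms of complex IV. COX4I2, the isoform known from lung and from low oxygen, ranged from 56.5 to 95.9 FPKM in XX controls and from 41.6 to 51.6 FPKM in XY controls at d37-39 (0.52 ± 0.12 log2, adjusted p = 0.0057). At d42-44 it measured 66.8, 64.8 and 79.5 FPKM in XX and 56.2, 43.4 and 36.8 FPKM in XY (0.64 log2, adjusted p = 0.042, lost under median ratio scaling). COX7A1, the form typical of muscle, ranged from 120 to 155 FPKM in XX and from 84.8 to 111 FPKM in XY gonads of the d37-39 controls (0.44 ± 0.08 log2, adjusted p = 0.001). At d42-44 it measured 128, 101 and 117 FPKM in XX and 129, 91.3 and 104 FPKM in XY, so the groups overlapped.

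**Figure D4:**
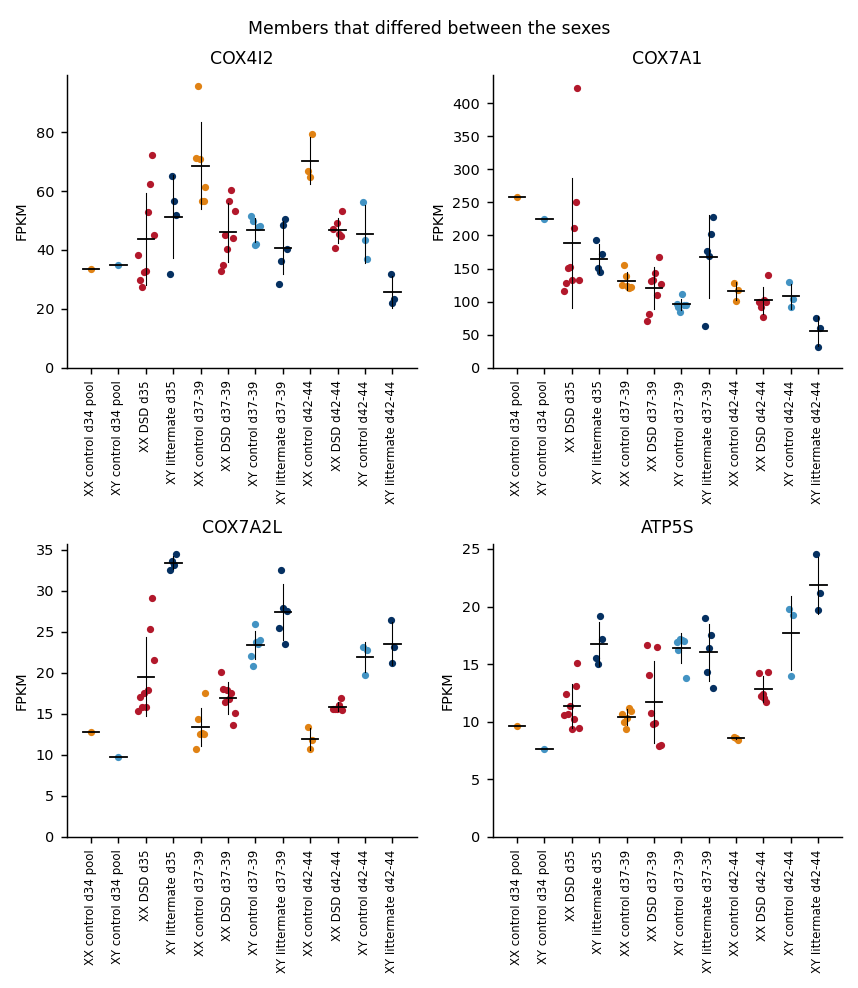
FPKM of COX4I2, COX7A1, COX7A2L and ATP5S, with each group on the x axis, 1 point per library, bars at the group mean and lines of 1 SD. The mean of COX7A2L and of ATP5S is lower in every XX group from d35 on than in the XY group of the same pedigree (at d42-44 controls, ATP5S 8.45 to 8.65 against 14 to 19.8 FPKM), and COX4I2 is higher in XX than in XY controls.

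The ratio of an isoform to its counterpart within a library does not depend on that library's scaling. These ratios were chosen after the fits had been seen. COX4I2 over COX4I1 was at d37-39 0.196 ± 0.0308 in XX controls and 0.101 ± 0.00829 in XY controls (SD, n = 6 each, two-sided exact permutation test, p = 0.0022, adjusted p = 0.0097 over 18 tests). It was 0.224 ± 0.0322 and 0.10 ± 0.00638 at d42-44, where 3 libraries against 3 cannot give a p below 0.1. COX7A1 over COX7A2 XLOC_007946 was at d37-39 2.81 ± 0.209 in XX and 1.52 ± 0.263 in XY controls (adjusted p = 0.0097, exact permutation test). In the d34 pools, 1 library each, the COX7A1 ratio was 3.25 in XX and 5.05 in XY, and the COX4I2 ratio 0.10 in XX and 0.0664 in XY.

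In XX DSD gonads at d42-44 the COX7A1 ratio was 1.83 ± 0.383 (SD, n = 6), against 2.73 ± 0.0965 in XX controls and 0.786 ± 0.232 in XY littermates (SD, n = 3 each). Both differences had p = 0.012 in the exact permutation test, the smallest that 6 against 3 libraries allow, and adjusted p = 0.03. The COX4I2 ratio was 0.173 ± 0.02 in XX DSD, against 0.224 in XX controls (exact permutation p = 0.024, adjusted p = 0.048, with ranges that overlapped) and 0.0761 ± 0.0122 in XY littermates (adjusted p = 0.03). XY littermates in turn had lower ratios than XY controls at d42-44, 0.786 against 1.68 for COX7A1 (-1.15 log2) and 0.0761 against 0.10 for COX4I2 (-0.40 log2), where 3 libraries against 3 cannot give an exact permutation p below 0.1. The mean XX DSD ratios lay between those of XX controls and XY littermates and above those of XY controls. At d37-39 neither ratio passed between XX DSD and XX controls (exact permutation, adjusted p = 0.12 for COX4I2 and 0.52 for COX7A1). The d37 XX DSD libraries C3512 and C3515 had COX7A1 ratios of 1.17 and 1.31, and those of d39 had 2.57 to 3.53. Their relative depths of 0.268 and 0.291 were like the 0.257 to 0.321 of XX DSD at d42-44. The part of depth, day or litter in these ratios was not tested.

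Within the DSD pedigree, XX DSD gonads were compared with the XY littermate group at each age. At d35 and at d42-44 the XX DSD libraries came from 4 litters and the XY littermate libraries from 2, so some XX DSD embryos had no XY library of their litter. At d35, 21 of 57 tested members were lower in XX DSD and none higher, where 21.4% of all loci were called, 13.1% lower and 8.3% higher, and 25.3% of annotated loci. The median change was -0.47 log2 for members and -0.05 for all loci. Complex III had 6 of 8 tested members lower. UQCRC2 measured 136, 145, 144 and 148 FPKM in littermates and 82.1 to 131 FPKM (median 93.3) in XX DSD, a change of -0.55 ± 0.13 log2 (adjusted p = 0.0082). COX7A2L measured 32.6, 33.1, 34.5 and 33.6 FPKM against 15.3 to 29.1 FPKM (median 17.6), a change of -0.78 ± 0.15 log2 (adjusted p = 0.0027).

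ATP5B was lower by 0.62 log2 (adjusted p = 0.011) and COX4I1 by 0.79 log2 (adjusted p = 0.02) at d35. Among the XX DSD libraries of d35, C3573 and C3575 of 1 litter stood highest for many members, with 548 and 657 FPKM of COX4I1 where the other 7 had 262 to 428 FPKM, which overlapped the 606 to 711 FPKM of littermates. C3575 had a depth estimate that differed by 1.04 log2 between references. With litter as a fixed factor 3 members were called at d35. Leaving out 1 littermate left 13 (C3574), 9 (C3617), 11 (C3618) or 8 (C3619).

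At d37-39, 11 of 55 members were lower in XX DSD than in XY littermates and none higher, where 7.49% of all loci were called, 4.09% lower and 3.41% higher, and 19.9% of annotated loci. The median change was -0.21 log2 for members, -0.28 for all loci and -0.01 for annotated loci. COX7A2L (-0.66 log2, adjusted p = 0.00036), UQCRC2 (-0.47 log2, adjusted p = 0.00024) and COX4I1 (-0.47 log2, adjusted p = 0.0033) were lower without overlap. The count was 7 without the libraries that stand apart, 7 without C3626, 17 over annotated loci alone and 19 with litter as a fixed factor.

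At d42-44, 9 of 56 members were lower in XX DSD than in XY littermates and 4 higher, where 28.3% of all loci were called, 15.5% lower and 12.8% higher, and 37.8% of annotated loci. With litter, which these groups share only in part, as a fixed factor 5 members were called. ATP5S (-0.72 log2, adjusted p = 0.0004), COX7A2L (-0.54 log2), NDUFS1 (-0.50 log2, adjusted p = 0.001) and UQCRC2 (-0.44 log2) were lower. Higher were COX7A1 (0.93 log2, adjusted p = 0.029), with 77.2 to 140 FPKM against 59.9, 75.8 and 31.0 FPKM, COX4I2 (0.85 log2, adjusted p = 0.00084), ATP5D (0.36 log2) and the accessory subunit NDUFB10 (0.30 log2). Under median ratio scaling the split was 6 lower and 5 higher, and without the d41 embryos 7 members were called.

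UQCRC2 and COX7A2L were lower in the XX group in all 5 comparisons of XX with XY. Leydig and steroidogenic loci, which summed to 411 to 629 FPKM in XX and 8910 to 9640 FPKM in XY controls at d42-44, moved with sex. Of them, 7 of 7 tested were lower in XX at that age. Mesonephros and kidney markers summed to 14.5 to 19.1 FPKM in XX and 41.4 to 52.0 FPKM in XY, and adrenal cortex markers to at most 4.91 FPKM in any library. Their part in the sex differences of the members was not tested. In XX DSD at d42-44 Leydig and steroidogenic loci summed to 455 to 2260 FPKM and pre-granulosa loci to 144 to 226 FPKM, against 312 to 367 FPKM of the latter in XX controls.

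The subunits encoded in mitochondrial DNA lay outside the name rule and in 4 loci that each hold several genes or 1 gene of a strand. The largest, with COX1 to COX3, both ATP synthase genes and 4 complex I genes, averaged 48400 ± 2350 FPKM in XX controls and 81800 ± 9600 FPKM in XY controls at d42-44 (SD, n = 3 each, -0.75 log2, adjusted p = 0.0037). The loci of MT-CYB (-0.89 log2) and MT-ND6 (-1.12 log2) and the one with the rRNAs, MT-ND1 and MT-ND2 (-0.54 log2) were lower in XX as well, and all 4 were at d37-39. PolyA selection and the multi-gene loci limit these levels to comparisons of one locus between groups.

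In XX DSD against XX controls at d42-44, all 4 mitochondrial loci were higher, by 0.20 log2 (the rRNA locus, adjusted p = 0.016), 0.70 (the largest, adjusted p = 5.2e-05), 0.40 (MT-CYB) and 0.94 (MT-ND6, adjusted p = 3e-04). The largest ranged from 73600 to 86500 FPKM in XX DSD and from 46400 to 51000 FPKM in XX controls. XY littermates had higher means than XY controls at all 4 loci at that age too, 109000 ± 7190 against 81800 ± 9600 FPKM in the largest (0.42 log2), with none passing (adjusted p from 0.15 to 0.26 by limma), and no interaction of pedigree and sex passed at these loci. At d37-39 MT-ND6 alone passed (0.49 log2, adjusted p = 0.01). At d35 all 4 means were higher in XX DSD than in XY littermates, 38400 ± 18500 (SD, n = 9) against 26300 ± 5850 FPKM (SD, n = 4) in the largest, with none passing (adjusted p from 0.33 to 0.54 by limma). In the largest locus the d37 XX DSD libraries C3512 and C3515 had 84000 and 82700 FPKM and the 6 of d39 had 30700 to 39800 FPKM. At d35, C3575 had 86200 FPKM and the other 8 XX DSD libraries had at most 41600 FPKM. C3516, the XY littermate of C3512 and C3515, had 99000 FPKM and the XY littermates of d39 had 52000 to 62300 FPKM. C3512, C3515 and C3575 had relative depths of 0.268, 0.291 and 0.261, of which the last differed by 1.04 log2 between references. The part of depth, day or litter was not tested.

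**Figure D5:**
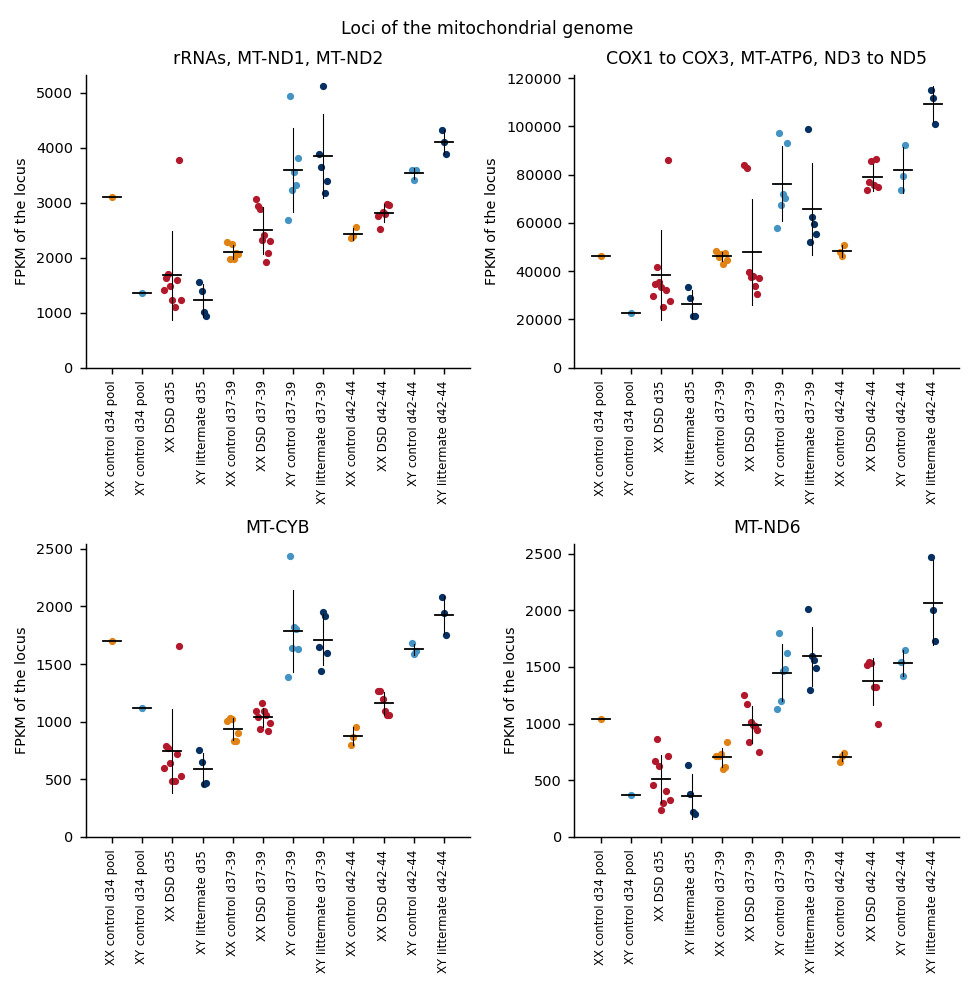
FPKM of the 4 loci of the mitochondrial genome, with each group on the x axis, 1 point per library, bars at the group mean and lines of 1 SD. XX controls lie below XY controls at d37-39 and d42-44, while the XX pool of d34 lies above the XY pool at all 4 loci (46400 against 22800 FPKM in the largest). Each pool is 1 library, and pre-granulosa and Leydig markers of the XY pool were unlike those of the other XY groups. XX DSD at d42-44 (73600 to 86500 FPKM in the largest) lies above XX controls (46400 to 51000 FPKM), and the mean of XY littermates above that of XY controls.

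Other genes of mitochondrial and energy metabolism gave the following counts in XX DSD against XX controls at d42-44, on lists by textbook function. Of 14 tested loci of complex I assembly factors, 7 were higher and 4 lower (median 0.17 log2), 1 of the lower ones being the member ATP5SL. Among them were NUBPL, which delivers iron-sulfur clusters to complex I (0.65 log2, adjusted p = 0.00011), and NDUFAF4 (0.68 log2), both higher, and NDUFAF3 (-0.68 log2) and FOXRED1 (-0.60 log2), both lower. The list of assembly factors of complexes II to V had 6 higher and 10 lower of 26, 1 of the lower ones being the chain subunit CYC1, which is also on the next list, and regulators of mitochondrial biogenesis 4 and 6 of 14. Among 4 chain and ATP synthase genes with symbols outside the name rule, CYC1, the cytochrome c1 of complex III, was lower (-0.99 log2, adjusted p = 1.5e-05), as was NDUFA4L2 (-1.65 log2), while USMG5, a small ATP synthase subunit (1.17 log2, adjusted p = 0.00015), and CYCS, cytochrome c (0.46 log2), were higher.

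Citrate cycle and pyruvate dehydrogenase loci had 5 higher and 6 lower of 14 tested. Glycolysis loci had 1 higher and 8 lower of 11 (median -0.54 log2), among them PFKL, the liver form of phosphofructokinase (-1.14 ± 0.06 log2, adjusted p = 4.2e-06), with a mean of 102 FPKM in XX controls and 45.9 FPKM in XX DSD. Mitochondrial ribosomal proteins had 16 higher and 24 lower of 54 (median -0.16 log2) and cytosolic ribosomal proteins 7 higher and 30 lower of 58 (median -0.24 log2). These counts lie beside 19.3% of all loci and 25.2% of annotated loci higher, and 29.2% and 39.2% lower, and no list was tested against other loci.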

How the data were processed

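The authors made 1 TruSeq v2 polyA library per gonad pair (unstranded, single-end reads of 75 to 100 nt, on more than one instrument) and pooled libraries for sequencing by group. Per the submitters' processing notes, reads were trimmed (cutadapt 1.5; the methods name another version), aligned to canFam3 (TopHat2 2.0.13) and assembled with the Ensembl annotation as guide (Cufflinks 2.2.1), and the authors deposited FPKM normalized by Cuffnorm for 58781 loci in 55 libraries. Read counts were not used here, so relative depth was estimated from the smallest nonzero values, with 3 references, and was uncertain by about 1 log2 in 3 libraries (A1088, C3575 and the XY pool). A table of annotated genes alone was not used, because no source paired its identifiers with the members' symbols.

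Groups came from the sample labels and litters from the study. Loci that averaged 1 FPKM or more in any group were fitted as log2(FPKM + 1) in limma 3.58.1 (R 4.3.3) with a mean-variance trend, for the groups of each comparison, and p-values were adjusted by Benjamini-Hochberg over all loci tested. A call was an adjusted p below 0.05. A fold change is thus on the log2(FPKM + 1) scale and understates low loci. A second rule added a fold of 2 between group means and a mean of 4 FPKM. Each library in a test was 1 embryo, and embryos of 1 litter were treated as independent. The ratios used an exact permutation test (scipy 1.17.1). The scripts were tested on simulated data.

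Alternatives were other filters, pseudocount, trend and scaling, a length trend removed, litter as a block, d39 alone, d41 left out and each library left out in turn. Restriction to annotated loci and omission of the 4 libraries that stand apart were chosen after seeing the data. Members, lists and named genes (per complex the 2 lowest adjusted p at each age in XX DSD against XX controls, the most and least abundant, those called against the majority, SDH subunits and isoforms) were chosen with earlier results of these data known. Other members and library values were named for illustration after their values were seen. No sequence is printed.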

Additional observations from a re-analysis of the deposited data

Results flagged for a closer look

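A single library stood far from the rest of its group in 23 of 252 groups of 4 to 10 libraries tested over the members (Dixon's criterion at 95%), and chance gives about 1 in 20 such groups.

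In XX DSD at d35, C3575 was highest for COX7A1 (424 FPKM, next 251), NDUFB5 (32.8 FPKM, next 22.5) and NDUFS4 (231 FPKM, next 161), and C3511 for NDUFS1 (64.4 FPKM, next 55.5). Among XY littermates at d35, ATP5D was lowest in C3618 (273 FPKM, next 344), SDHB highest in C3574 (117 FPKM, next 98.9) and UQCR11 highest in C3619 (538 FPKM, next 464).

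At d37-39, the XY control A1095 was lowest for COX4I1 (391 FPKM, next 469) and COX5B (580 FPKM, next 821) and highest for COX7C (173 FPKM, next 107). The XY control A1100 was lowest for ATP5S (13.8 FPKM, next 16.2), and A1099 highest for COX7A2 XLOC_007549 (5.2 FPKM, next 2.24). Among XX controls, A1086 was lowest for NDUFC1 XLOC_017785 (92.3 FPKM, next 102) and A1098 lowest for NDUFS4 (97.4 FPKM, next 109). Among XY littermates, C3638 was highest for NDUFC1 XLOC_017785 (278 FPKM, next 177) and C3637 lowest for COX7A2 XLOC_007946 (55.6 FPKM, next 75.1). Among XX DSD, SDHA was highest in C3633 (254 FPKM, next 206), COX6A2 in C3624 (4.86 FPKM, all others listed at 0) and NDUFC1 XLOC_017605 in C3642 (0.887 FPKM, all others listed at 0).

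In XX DSD at d42-44, UQCR11 was highest in C3659 (334 FPKM, next 256) and NDUFS4 lowest in C3684 (114 FPKM, next 128). COX6A2 was listed above 0 in C3684 alone (0.624 FPKM) and NDUFC1 XLOC_017605 in C3688 alone (1.26 FPKM).

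The d34 control pools entered no comparison. In the XY pool, NDUFS7 stood at 248 FPKM, ATP5D at 414 FPKM, COX8A at 722 FPKM and UQCR10 at 1260 FPKM, more than 1.5 times the highest control library of d37-39 or d42-44 (106, 248, 458 and 835 FPKM). The XX pool had 113, 183, 661 and 619 FPKM of these members, so for COX8A the pools were close. In the XX pool, COX7A1 stood at 258 FPKM, where the highest control library of d37-39 or d42-44 had 155 FPKM and the XY pool 225 FPKM. The pools are 1 library each, of another breed mix, and the XY pool was the shallowest of all libraries (relative depth 0.142). Pre-granulosa loci summed to 93.5 FPKM in the XY pool and 114 FPKM in the XX pool, against 11.2 to 35.9 FPKM in all other XY libraries. Leydig and steroidogenic loci summed to 372 and 329 FPKM, against 1290 to 7180 FPKM in XY littermates of d35. Sertoli loci differed with the sex label, at 872 FPKM in the XY pool and 432 FPKM in the XX pool.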

How the results depend on the processing

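The labels give animal numbers and no replicate numbers that groups share, so pairing was tried by litter alone. The number of members called, with its main value in brackets, moved as follows, and the cause was not tested. For XX DSD against XX controls at d37-39 (16) it was 3 with litter as a random block, 12 with the length trend removed (7 higher and 5 lower) and 10 at d39 alone, and leaving out 1 library gave 8 to 16. At d42-44 (42) it was 37 with the length trend removed and 38 to 44 without 1 library. For XY littermates against XY controls at d37-39 (4) it was 8 over annotated loci alone, 2 at d39 alone and 0 without the libraries that stand apart, without a filter on low values, without the mean-variance trend, with litter as a random block or with the length trend removed, and 0 to 7 without 1 library. At d42-44 (7) it was 20 over annotated loci alone, 16 with the filter raised to 4 FPKM, 34 with litter as a random block (estimated correlation within litters -0.253), 4 with the length trend removed and 0 without a filter, without the trend or without d41, and 0 to 7 without 1 library. For XX against XY controls it was 6 at d39 alone at d37-39 (18) and 5 to 17 without 1 library at d42-44 (15). For XX DSD against XY littermates at d35 (21) it was 13 without a filter, 3 with litter as a fixed factor and 8 to 13 without 1 littermate. At d37-39 (11) it was 17 over annotated loci alone, 7 without the libraries that stand apart, 7 without a filter, 5 without the trend, 19 with litter as a fixed factor and 7 to 10 without 1 littermate. At d42-44 (13) it was 5 with litter as a fixed factor, 7 without d41 and 9 to 18 without 1 library. The interactions called 0 members throughout. The other alternatives run gave counts within 1.5 times of those in brackets. The planned repeat on the table of annotated genes was not run, nor was litter for XX against XY controls at d42-44, which came from 1 litter. Where litter was not a factor, embryos of 1 litter count as independent, and the 0 to 7 calls in XY littermates rest on 3 libraries against 3.

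Among refitted values of named members under the alternatives, 1337 kept their direction and side of the threshold, 67 lost the call, 18 gained one and 1 changed direction. That was SDHA in XX DSD against XX controls at d42-44, at 0.13 log2 with the length trend removed (adjusted p = 0.012 by limma) and -0.08 log2 otherwise. FPKM without read totals limit what can be said of members near 1 FPKM.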

Other observations

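In the control pool of d34, XY gonads had higher FPKM than any other group mean at UQCRQ (731 FPKM), UQCR11 (778 FPKM) and COX5B (1260 FPKM) and lower FPKM at NDUFV2 (9.70 FPKM), COX7C (55.5 FPKM) and COX7A2L (9.79 FPKM). The XX pool had 18.6 FPKM of NDUFV2, 111 FPKM of COX7C and 12.8 FPKM of COX7A2L. Each pool is a single library, so no test was made, and pre-granulosa and Leydig markers of the XY pool were unlike those of the other XY groups.

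A single-exon locus named COX7B2, after a germ cell isoform, had a mean of 551 FPKM over all libraries (range 366 to 844 FPKM), above COX7A2 XLOC_007946 at 60.9 FPKM. No locus named COX7B was among the members. The 7 germ cell marker loci together summed to 10.9 to 43.4 FPKM. The COX7B2 locus was lower in XX than in XY controls at d37-39 by 0.24 log2 (adjusted p = 0.02 by limma). Reads of near-identical copies of a subunit can be split between loci, so the level of a single-exon locus is uncertain. Whether this locus is the germ cell isoform gene was not tested.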
